A study of Mus musculus with 60 samples.

Results

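The fatty acid binding protein cluster on mouse chromosome 3 was examined for trimethylation of histone H3 at lysine 27 (H3K27me3) and for HA-tagged histone H3. Its 5 members were Fabp5, Pmp2, Fabp9, Fabp4 and Fabp12, out of 21938 protein-coding genes annotated on chromosomes 1 to 19, X and Y. The members and the interval around them, which starts at chr3:9900000 in the mm10 build and runs for 550 kb, were chosen from H3K27me3 peaks of these same samples. H3K27me3 values are therefore given as a description with no test. HA values come from another antibody, but HA peaks of the interval were also named in the rule and known from earlier results, so the HA comparisons are not independent evidence about the cluster.

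The 60 samples came from the mouse line C3H 10T1/2, whose cells behave as mesenchymal progenitors, and were profiled by CUT&RUN. In this assay a nuclease tethered through an antibody cuts out the bound DNA for sequencing. Every group carried a lentiviral transgene driven by the EF1 promoter and selected with puromycin, encoding human H3.1 with HA and FLAG tags at its C terminus, and all cells kept their endogenous H3. The transgene was H3WT, unmutated, or had arginine replaced by cysteine at position 2, 8, 17 or 26 of H3, giving H3R2C, H3R8C, H3R17C and H3R26C. The 5 genotypes were each profiled with anti-HA, anti-H3K27me3 and 2 further kinds of sample not analysed here (IgG and anti-H3K4me3), with 3 labelled replicates each.

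Peak lists of 30 samples, profiled with either anti-HA or anti-H3K27me3, entered the comparisons. Within each genotype and antibody, 2 of the labelled replicates had identical peak lists, which were counted once. The anti-H3K27me3 list of H3R17C replicate 1 was left out because the name of its file gave another mark. This left 9 H3K27me3 lists, with 1 for H3R17C and 2 for each other genotype, and 10 HA lists. List A stands for the list shared by replicates 1 and 2 and list B for that of replicate 3, and the single H3K27me3 list of H3R17C was shared by replicates 2 and 3. The study describes its replicates as biological, but with identical lists counted once a group has at most 2 lists, and p-values measure only the spread between these lists.

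Fatty acid binding proteins are small cytosolic proteins that carry long-chain fatty acids and other lipids within the cell. Fabp4 is the adipocyte form and a classical marker of fat cell differentiation, Fabp5 is the epidermal form and is found in many tissues, Pmp2 (also called Fabp8) is a protein of peripheral myelin, and Fabp9 is the testis form. Fabp12 is a later-described member of the family. H3K27me3 is deposited by Polycomb repressive complex 2 and marks genes that are held silent, often over broad domains in genes of other lineages.

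The 9 H3K27me3 lists held 20077 to 24598 peaks and covered 2.36% to 4.79% of the genome. A peak list holds what passed the caller's threshold, so the absence of a peak means that none reached the level of that list. Signal of a gene is the total signal (coverage summed over the base pairs of a peak) of all peaks that overlapped the gene body and 1 kb on each side, divided by the median of the same sum over the 5401 regions called in all 9 lists. On this scale 1 is a typical shared region, and the weakest peak of a list lay between 0.118 and 0.188. The study states read totals per labelled sample, but which of the samples a shared list was made from is not given in the sources used here. Totals are therefore known for list B, that of replicate 3, but not for the shared lists. They were not used for either, and no counting interval is given. The 10 HA lists held 15344 to 52083 peaks. The HA list A of H3WT stood apart from the other HA lists, with a median peak width of 10.7 kb against 0.80 to 2.65 kb.

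The 300 bases around the point of highest signal are shown for 3 of the H3K27me3 peaks described below, 1 in Fabp12 and 2 in an array upstream of Fabp5. All are read from the plus strand of GRCm38, the assembly behind mm10, 5′ to 3′, and the capitals mark CG dinucleotides. The Fabp12 window, chr3:10252651-10252950, lay in an intron of Fabp12, and its highest point was that of list A of H3R2C. The window upstream of Fabp5, chr3:10007376-10007675, was intergenic, 5.02 kb from the Fabp5 start, and the distal window, chr3:9930976-9931275, was intergenic, 81.4 kb from it; both were centred in list A of H3WT.
Fabp12 intron: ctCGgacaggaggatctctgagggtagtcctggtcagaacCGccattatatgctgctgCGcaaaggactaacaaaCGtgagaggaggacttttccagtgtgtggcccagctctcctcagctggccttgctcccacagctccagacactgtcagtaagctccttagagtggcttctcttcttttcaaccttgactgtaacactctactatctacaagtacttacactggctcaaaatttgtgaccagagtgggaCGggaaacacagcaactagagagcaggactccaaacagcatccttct
Fabp5 upstream: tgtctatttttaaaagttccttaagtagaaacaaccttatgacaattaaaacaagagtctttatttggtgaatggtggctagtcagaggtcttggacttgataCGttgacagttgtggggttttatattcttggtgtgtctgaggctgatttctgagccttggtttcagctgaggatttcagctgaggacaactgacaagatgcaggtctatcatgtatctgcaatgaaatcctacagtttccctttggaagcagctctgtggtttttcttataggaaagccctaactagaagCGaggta
Distal: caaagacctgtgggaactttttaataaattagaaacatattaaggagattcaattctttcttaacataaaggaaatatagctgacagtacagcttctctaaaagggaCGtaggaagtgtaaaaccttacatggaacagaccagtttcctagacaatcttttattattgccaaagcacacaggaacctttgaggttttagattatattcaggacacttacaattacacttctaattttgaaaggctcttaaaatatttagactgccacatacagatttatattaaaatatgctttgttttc

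The Fabp12 window held 5 CG dinucleotides, the window upstream of Fabp5 held 2 and the distal window held 1. Of 931 windows of the same length at the peaks of list A of H3WT on chromosome 3, 12.8% held at least 5, 60.3% held at least 2 and 85.0% held at least 1, and their median was 2. Their counts ran from 0 to 25. By rank the Fabp12 window was high among them, the window upstream of Fabp5 was at their median and the distal window below it. The Fabp12 window was centred in a list of H3R2C, whereas the 931 windows came from H3WT. GC content was 50.3% in the Fabp12 window, 40.3% upstream of Fabp5 and 31.7% in the distal window, beside a median of 40.0% over the 931 windows.

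Along the interval, H3K27me3 peaks lay in an array upstream of Fabp5 and inside Fabp12, with none between them. From the Fabp5 start to 1 kb before the 3′ end of Fabp12, a stretch of 231 kb that holds Fabp5, Pmp2, Fabp9 and Fabp4, no peak was called in any of the 9 lists. None was called beyond Fabp12 either. Accordingly 4 of the 5 members had no H3K27me3 peak in the gene body or 1 kb on each side in any list, as did 74.6% of all protein-coding genes. These limits of the interval were drawn after the peaks had been seen.

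**Figure D1:**
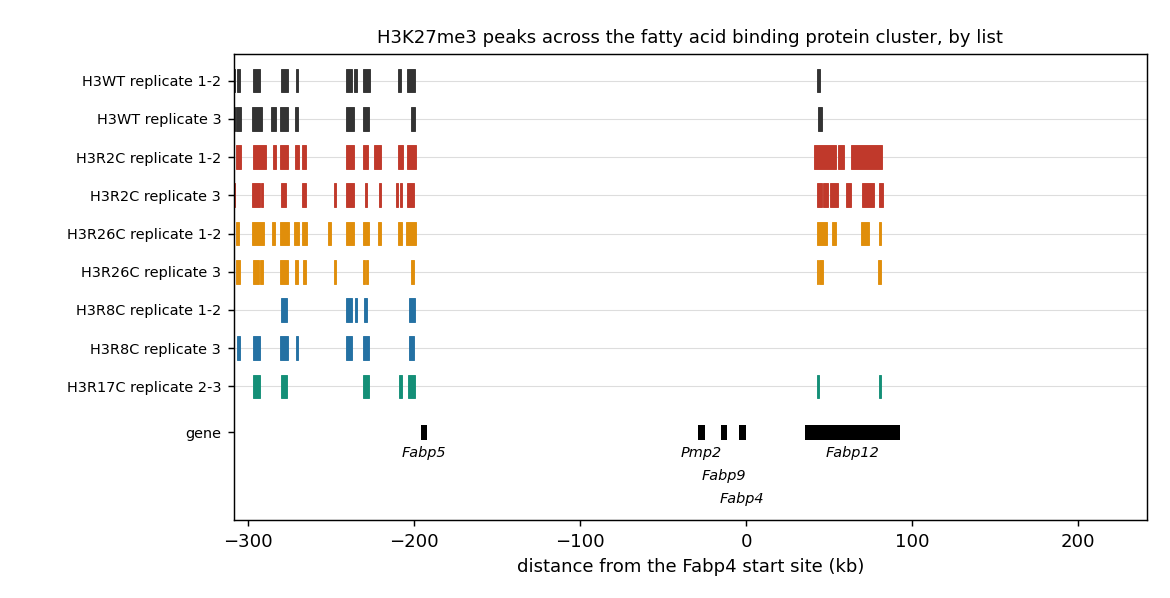
H3K27me3 peaks (bars) in each of the 9 lists, one row per list coloured by genotype, against distance from the Fabp4 start site in kb; black bars at the bottom are the 5 member genes. In all lists the stretch from Fabp5 to Fabp4 is empty, the array left of Fabp5 is present, and the rows differ most at Fabp12, where both H3R8C lists have no peak.

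Fabp4 (chr3:10204088-10208576, minus strand) lay far from any peak. The nearest H3K27me3 peak was 41.0 to 199.9 kb from its start site across the lists, the larger distances belonging to the H3R8C lists, which had no peak in Fabp12. Pmp2 (chr3:10179851-10183929, minus strand) was 65.6 to 175 kb from the nearest peak. Fabp9 (chr3:10193621-10197283, minus strand) has 2 annotated start sites, and the nearest peak lay 52.3 to 189 kb away.

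Fabp5 (chr3:10012548-10016607, plus strand) was the member closest to an H3K27me3 peak that was present in all lists. The nearest peak ended 2.70 to 4.05 kb before its start site, with 3.70 kb in list A and 3.25 kb in list B of H3WT. The distance was 2.85 and 3.90 kb in H3R2C, 2.70 and 4.05 kb in H3R26C, 3.65 and 3.85 kb in H3R8C, and 3.35 kb in H3R17C. The edge of the array therefore stayed within 1 narrow range, and the mutant values fell on both sides of those of H3WT in H3R2C and H3R26C.

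A start site was scored as called where a peak overlapped the 1 kb on each side by at least 1 bp. Start sites of 4 members were called in no list, as were 81.0% of the 21853 genes with a protein-coding start. No member was called in both H3WT lists, as were 9.96% of all genes, so none could be scored as lost. No member was gained, which needed a call in all lists of the mutant and in neither H3WT list. Among all genes 1.09% were gained in H3R2C, 0.879% in H3R26C, 0.760% in H3R8C and 0.545% in H3R17C. Fabp12 has 4 annotated start sites, 2 at the upstream end of the gene (10301174 and 10301183) and 2 inside it (10254225 and 10254252). The internal start was called in list B of H3WT, both H3R2C lists and both H3R26C lists, and in no list of H3R8C or H3R17C. It was not gained because of list B of H3WT. Without that list, Fabp12 was gained in H3R2C and H3R26C, and the share of all genes gained in that setting was not computed. The upstream start was called in no list, and the nearest peak lay at least 10.02 kb away.

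Within Fabp12 (chr3:10244209-10301183, minus strand), H3K27me3 peaks covered far more of the gene in H3R2C and H3R26C than in H3WT, and none in H3R8C. Of the gene body and 1 kb on each side (59.0 kb), peaks covered 3.14% in list A and 4.24% in list B of H3WT. They covered 59.9% and 41.5% in H3R2C, 24.9% and 8.56% in H3R26C, 0% in both H3R8C lists and 4.58% in H3R17C. Every list of H3R2C and H3R26C lay above both H3WT lists, both H3R8C lists lay below them, and H3R17C lay just above them.

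Coverage without overlap in the same direction was found for 5.42% of all genes in H3R2C, 3.01% in H3R26C, 3.11% in H3R17C and 3.48% in H3R8C. The mean difference from H3WT was 47.0 percentage points in H3R2C and 13.1 in H3R26C. A difference at least as large was found for 0.465% of all genes in H3R2C and 2.06% in H3R26C. The H3K27me3 lists chose this gene, and these shares are given as background only.

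The H3WT peaks sat next to the internal start. List A held 1 peak at chr3:10251201-10253050 and list B 1 peak at chr3:10252101-10254600. In H3R2C, list A held 3 peaks, from chr3:10249551-10262850 to chr3:10272001-10290600, the widest 18.6 kb long. List B of H3R2C held 6 peaks over the same stretch, the widest 7.35 kb. H3R26C had 4 peaks in list A, the widest 6.15 kb, and 3 in list B, the widest 2.55 kb. H3R17C had 2 peaks, the wider 1.45 kb. The peaks of H3R2C began downstream of the internal start and ran upstream past it and over the exon at chr3:10261410-10261622. They went on into the long intron between that exon and the upstream start. Of the 7 exons of Fabp12, counting overlapping exons once, peaks touched 1 and 2 in the H3WT lists, 4 and 3 in H3R2C, 3 and 2 in H3R26C, none in H3R8C and 1 in H3R17C.

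**Figure D2:**
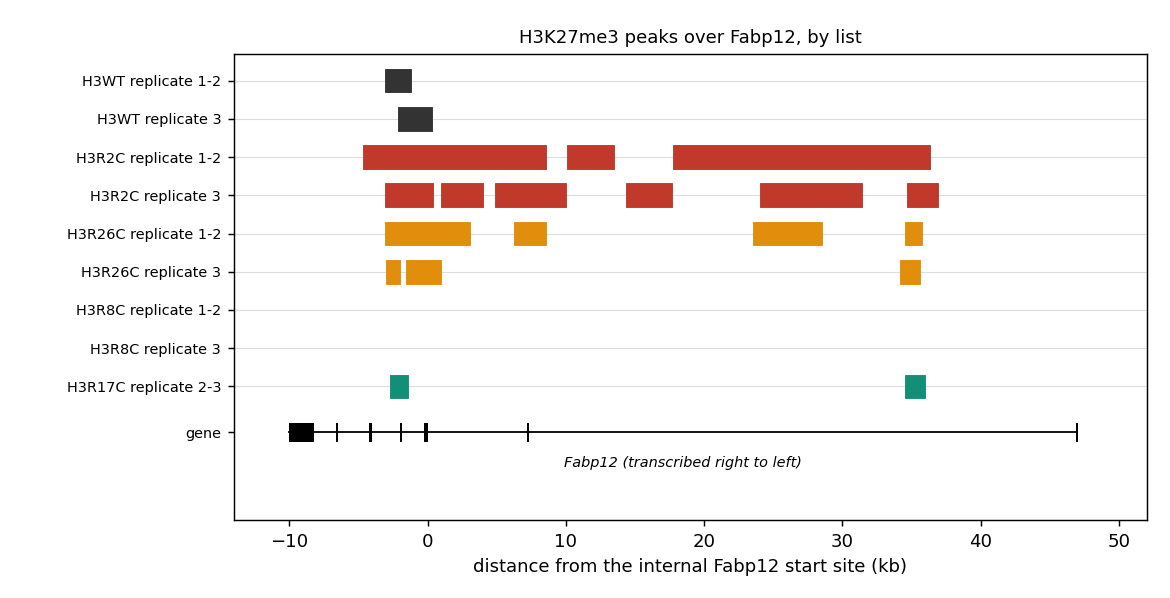
H3K27me3 peaks (bars) over Fabp12 in each of the 9 lists, one row per list coloured by genotype, against distance in kb from the internal start site; black boxes on the line at the bottom are exons. H3R2C peaks, the widest 18.6 kb, extend into the long intron, H3WT has 1 short peak per list beside the internal start, and H3R8C has none.

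Further into that intron lay a region at chr3:10272001-10291150 (19.2 kb, peaks of all lists joined). This region held peaks in both H3R2C lists, both H3R26C lists and H3R17C, and in no list of H3WT or H3R8C. How many of the 36640 joined regions of the genome share this pattern was not computed. Its mean scaled signal was 1.65 in H3R2C, 0.356 in H3R26C and 0.155 in H3R17C. The region around the internal start, chr3:10249551-10264250, was called in 7 of the 9 lists, with a mean scaled signal of 0.148 in H3WT, 1.83 in H3R2C, 0.664 in H3R26C and 0.153 in H3R17C. The 2 regions between them were called in 1 list each, both of H3R2C.

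Scaled H3K27me3 signal of Fabp12 followed the same order. It was 0.145 and 0.151 in H3WT, 3.69 and 3.83 in H3R2C, 1.21 and 0.834 in H3R26C and 0.308 in H3R17C, and no peak was listed in H3R8C. These sums run over peaks called separately in each list, so their ratios move with how much was called and are no fold change of signal at a fixed site. The mean was 25.4 times that of H3WT (0.148 ± 0.00463, SD, n = 2) in H3R2C (3.76 ± 0.0999, SD, n = 2) and 6.89 times in H3R26C (1.02 ± 0.264, SD, n = 2). For H3R17C, with 1 list, the ratio was 2.08. The H3WT values lay near the weakest peak of any list, 0.140 and 0.142 in the H3WT lists themselves. The weakest peak was 0.118 and 0.126 in the H3R8C lists and 0.188 in list B of H3R26C, so an H3WT-like signal in Fabp12 lay close to or under what several lists could show. The highest coverage reached in the gene, unscaled, was 7 and 6 in H3WT, 18 and 13 in H3R2C, 11 and 8 in H3R26C and 10 in H3R17C. Per kb under peaks, scaled signal was 0.0783 and 0.0606 in H3WT, 0.105 and 0.157 in H3R2C, 0.0821 and 0.165 in H3R26C and 0.114 in H3R17C, against covered lengths of 1.85 and 2.5 kb in H3WT, 35.3 and 24.45 kb in H3R2C, 14.7 and 5.05 kb in H3R26C and 2.7 kb in H3R17C. Scaled in the same way, the height was 2.48 times that of H3WT in H3R2C and 1.65 times in H3R26C. In both H3R2C lists, covered length differed from H3WT by a larger factor than signal per kb did. List B of H3R26C lay above both H3WT lists in length (5.05 kb) and in signal per kb (0.165), so its difference did not lie mainly in length.

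Upstream of Fabp5, the array held 9 to 13 peaks in each list of H3WT, H3R2C and H3R26C and 5 to 7 in H3R8C and H3R17C. Of the 112.5 kb from the start of the interval to the Fabp5 start, peaks covered 24.1% and 25.6% in H3WT, 37.1% and 24.6% in H3R2C, 38.5% and 19.5% in H3R26C, 12.2% and 18.97% in H3R8C and 15.0% in H3R17C. H3R2C and H3R26C overlapped H3WT, whereas H3R8C and H3R17C lay below both H3WT lists. Scaled signal inside this stretch was 3.03 and 3.05 in H3WT, 4.79 in both H3R2C lists and 4.83 and 4.20 in H3R26C. It was 1.42 and 2.30 in H3R8C and 2.48 in H3R17C. On this scale no list of the mutants overlapped H3WT, with means 1.58 times H3WT in H3R2C, 1.49 times in H3R26C, 0.612 times in H3R8C and 0.817 times in H3R17C. These too are ratios of sums over called peaks. How often other stretches of the genome separate in this way was not computed, so the separation is a description only. Per kb under peaks, scaled signal was 0.112 and 0.106 in H3WT, 0.115 and 0.173 in H3R2C, 0.112 and 0.192 in H3R26C, 0.103 and 0.108 in H3R8C and 0.147 in H3R17C.

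**Figure D3:**
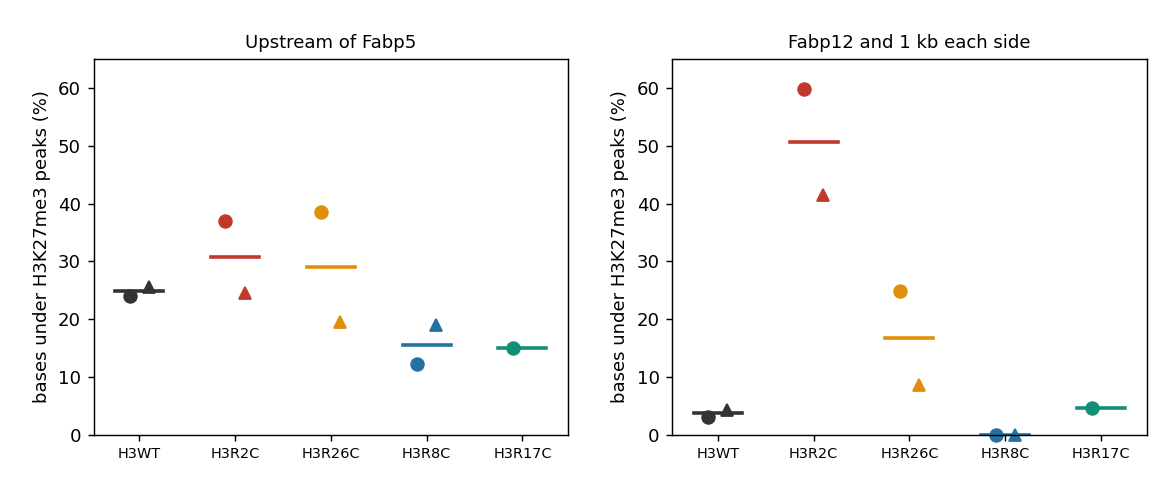
Percent of bases under H3K27me3 peaks upstream of Fabp5 (left) and in Fabp12 with 1 kb on each side (right), by genotype; circles are list A, triangles list B, and horizontal lines the mean. H3R2C reaches 59.9% and 41.5% at Fabp12 and overlaps H3WT upstream of Fabp5, where H3WT is at 24.1% and 25.6%.

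Across the interval, 20 regions held a peak in at least 1 list when the peaks of all lists were joined, with 4 called in all 9 lists and 4 in 1 list. All 4 regions shared by every list lay in the array, the first of them crossing the left edge of the interval (chr3:9889001-9900850). One region of the array, chr3:9940951-9943950, was called in both H3R2C and both H3R26C lists and in no other list, with mean scaled signal of 0.230 and 0.337. The share of regions with this pattern over the genome was not computed. Peaks covered 5.26% and 5.70% of the whole interval in H3WT, 14.0% and 9.48% in H3R2C, 10.5% and 4.90% in H3R26C, 2.5% and 3.88% in H3R8C and 3.55% in H3R17C. List B of H3R26C lay below both H3WT lists. That list covered 2.36% of the genome, against 4.41% in list A of H3R26C and 3.8% and 3.62% in H3WT. Divided by the share of the genome covered by the same list, coverage of the interval was 1.38 and 1.58 in H3WT, 2.93 and 3.36 in H3R2C, 2.39 and 2.08 in H3R26C, 0.703 and 0.975 in H3R8C and 1.17 in H3R17C. On this measure both H3R26C lists lay above both H3WT lists. The mean difference from H3WT was 6.26 percentage points in H3R2C, 2.24 in H3R26C, -2.29 in H3R8C and -1.93 in H3R17C. Without list A of H3R26C, the difference for H3R26C turned to -0.582 percentage points, with coverage not divided by that of the genome.

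The 8 other protein-coding genes that overlap the interval (Gm9833, Gm37389, Impa1, Gm38303, Slc10a5, Zfand1, Chmp4c and Snx16) had no H3K27me3 peak in any list. The same held for 74.6% of all protein-coding genes. Impa1 encodes an inositol monophosphatase, Slc10a5 a solute carrier, Chmp4c a subunit of the ESCRT-III membrane-scission machinery and Snx16 a sorting nexin. Gm37389 spans Pmp2 and Fabp9, so a peak there could not be assigned to 1 of the 3 genes. Gm38303 overlaps Impa1 and Slc10a5, so the 8 genes are not separate observations.

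Among 9 other genes for small intracellular lipid binding proteins, 7 had no H3K27me3 peak in any list: Fabp2, Fabp3, Fabp7, Rbp2, Rbp7, Crabp1 and Crabp2. This share is near the 74.6% of all protein-coding genes without a peak. Fabp1, the liver form, was called at its start in list B of H3WT, list B of H3R2C and list A of H3R26C, with scaled signal of 0.194, 0.239 and 0.270. Fabp6, the ileal bile acid binding protein, was called in H3R17C only, at 0.260, which counted as gained there.

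Of 16 genes for fatty acid uptake, storage and their regulators, 12 had no peak in any list, among them Pparg, Cebpa, Adipoq, Dgat1 and Lipe, again near the 74.6% of all protein-coding genes. Ppara, a nuclear receptor that induces fatty acid oxidation, was called at its start in all 9 lists with scaled signal from 7.24 to 9.89. Cd36, a fatty acid transporter, had peaks in 6 lists: 0.897 in list A of H3WT, 2.08 and 0.479 in H3R26C, 2.73 and 1.91 in H3R8C and 1.02 in H3R17C. It had none in list B of H3WT or in either H3R2C list, and its start was gained in H3R8C and H3R17C. For H3R8C and H3R2C this order was the opposite of that of Fabp12. Lpl and Plin1 were called in list B of H3R8C only, at 0.167 and 0.135.

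The cell type label could not be checked for expression from these lists, since a peak shows the mark and its absence does not show transcription. Of 8 markers of mesenchymal progenitors (Prrx1, Twist1, Pdgfra, Pdgfrb, Thy1, Eng, Cd44 and Ly6a), none had a peak in any H3K27me3 list. Of 6 adipocyte markers, 4 had none, while Lep was called at its start in 8 lists and Plin1 in 1. Of 4 Schwann cell markers, 3 had none, and Sox10 was called in 8 lists. Among all protein-coding genes 74.6% had no peak in any list, and these small counts were not tested against that share.

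The 3 genes outside the interval whose scaled H3K27me3 signal, as log2(signal + 0.25), lay nearest to that of Fabp12 over the 9 lists were Oxr1, Otulinl and Rorb, by Euclidean distance. The distance was 1.60 for Oxr1 (chr15:41447482-41861048), 1.97 for Otulinl (chr15:27655069-27681579) and 2.00 for Rorb (chr19:18930605-19111196). Mean scaled signal of Oxr1, an oxidation resistance gene, was 0.208 in H3WT, 3.16 in H3R2C, 0.518 in H3R26C, 0 in H3R8C and 0.481 in H3R17C. Otulinl was at 0.205 in H3WT, 1.39 in H3R2C, 0.675 in H3R26C, 0 in H3R8C and 0.239 in H3R17C. Rorb, a nuclear receptor of retina and brain, was at 0 in H3WT and H3R17C, 2.87 in H3R2C, 1.22 in H3R26C and 0.129 in H3R8C. These genes were picked for their likeness to Fabp12, so a shared order of the genotypes follows from the choice.

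The HA antibody marks where the tagged transgenic H3 lies. HA peaks in the interval were short and few and recurred little between lists: joined over the 10 lists they formed 46 regions, of which 43 were called in 1 list. None was called in every list, and the most shared, chr3:10123501-10136100, between Fabp5 and Pmp2, was called in 5. That region is the single wide peak of list A of H3WT, which joined shorter peaks of the other lists. The H3R17C peak in it overlapped no H3R2C or H3R8C peak. Lists A and B held 1 and 0 peaks in H3WT, 15 and 13 in H3R2C, 3 and 0 in H3R26C, 7 and 4 in H3R8C and 6 and 3 in H3R17C. They covered 2.29% and 0% of the interval in H3WT, 2.21% and 3.46% in H3R2C, 0.582% and 0% in H3R26C, 2.05% and 0.618% in H3R8C and 0.809% and 0.418% in H3R17C. The value of list A of H3WT was 1 peak of 12.6 kb. The HA lists covered 1.57% to 7.83% of the genome. Divided by the share of the genome covered, coverage of the interval was 0.293 and 0 in H3WT, 1.40 and 1.12 in H3R2C, 0.246 and 0 in H3R26C, 0.60 and 0.337 in H3R8C and 0.462 and 0.244 in H3R17C, so both H3R2C lists lay above all others. How often other intervals of this length show that order was not computed, so it is not shown to be particular to this cluster.

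H3R2C and H3R26C together covered 1.56% ± 1.57 (SD, n = 4) of the interval with HA peaks, and H3WT and H3R8C 1.24% ± 1.11 (SD, n = 4). The difference of 0.323 percentage points was smaller than the spread between lists (exact permutation test, two-sided, p = 0.80; 70 arrangements, smallest possible p = 0.0286). The direction of this difference was not stable: without list B of H3WT it was -0.0909 and without list B of H3R2C it was -0.311. The lists of H3R2C lay at the top and those of H3R26C at the bottom of the 4, so the pair did not share a level. Each side of the test joined lists of 2 genotypes, so the p-value speaks to no single mutant. HA peaks of this interval were named in the rule that chose it, so the test is no independent evidence.

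**Figure D4:**
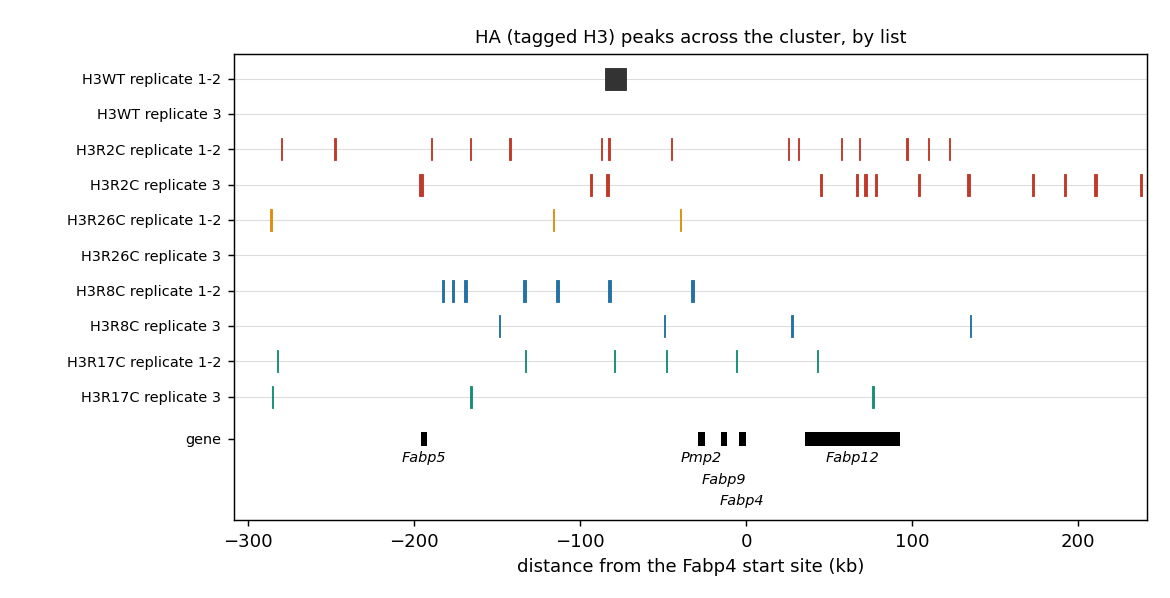
HA peaks (bars) in each of the 10 lists, one row per list coloured by genotype, against distance from the Fabp4 start site in kb; black bars at the bottom are the 5 member genes. H3R2C rows hold 15 and 13 peaks spread over the interval, H3R26C rows hold 3 and 0, and list A of H3WT is a single wide peak.

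At the members, HA peaks were seen at Fabp5, Fabp4 and Fabp12 and none at Pmp2 or Fabp9. Fabp5 was overlapped in list B of H3R2C only, over its start, with 34.7% of the gene window covered. Fabp4 was touched in list A of H3R17C, over 2.51% of its window. Fabp12 had HA peaks in 4 lists, with scaled HA signal of 0.563 and 0.571 in H3R2C and of 0.183 and 0.145 in H3R17C, and none in the lists of H3WT, H3R26C and H3R8C. Here the scale is the median over the 2625 genes with an HA peak in every list, on which the weakest peak of a list lay between 0.0967 and 0.214. It was 0.214 and 0.140 in the H3R2C lists and 0.166 and 0.132 in those of H3R17C. The H3R2C sums came from 2 peaks in list A (0.341 and 0.222) and 4 in list B (0.140 to 0.145). Except for the peak at 0.341, these lay close to the weakest peak of their list. Of the HA peaks in the interval, those that overlapped an H3K27me3 peak of the same genotype numbered 4 of 15 and 4 of 13 in H3R2C, 1 of 3 in list A of H3R26C, 1 of 6 in list A of H3R17C and 0 in the other lists.

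Of 21938 protein-coding genes, 12186 had an HA peak in at least 2 lists and were tested. Their scaled HA signal was compared between the mean of H3R2C and H3R26C and that of H3WT and H3R8C with limma. After Benjamini-Hochberg adjustment 0 genes were lower and 0 higher at 0.05 (0% in each direction), and 603 were lower and 1518 higher at an unadjusted p under 0.05. Fabp12 was the only member tested, and it passed the filter through the lists of H3R2C and H3R17C. Its difference on the log2(signal + 0.25) scale was 0.85 (SE 0.26; limma, adjusted p = 0.169), and it came from H3R2C, since H3R26C, H3WT and H3R8C had no HA peak there. With those lists at 0 the size of this difference is set by the pseudocount and is no fold change, at 1.81 with a pseudocount of 0.05 and 0.32 with 1. The median over all genes tested was 0.13. Of the 8 neighbours, Impa1 and Zfand1 were tested, at 0.59 and 0.0032 on the log2 scale. Of the 9 lipid binding protein genes 5 were tested, with a median of -0.21, and of the 16 fatty acid genes 15, with a median of 0.20. None of these lists held a gene that passed the threshold.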

How the data were processed

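CUT&RUN peak lists from C3H 10T1/2 cells were analysed. Single-end reads of 75 bp had been aligned by the authors to mm10 (Rsubread). Peaks of each labelled sample were then called using SEACR 1.3 (stringent, norm, threshold 0.01). The deposited lists give, per peak, total signal and maximum signal (coverage summed over, or highest in, the peak), not scaled to a common depth. The submitters' processing notes also name ChIPseeker 1.28.3 and DESeq2. Peaks with low signal are missing from each list, and peak edges lie on a grid of 50 bp.

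Genes came from GENCODE M21. Coverage, calls and scaled signals were computed with Python 3.11.15. The HA test used limma 3.58.1 in R 4.3.3 (lmFit, eBayes with trend, pseudocount 0.25). Its code was also run on simulated normal values. Their shifts were far larger than the Fabp12 difference in the main fit, so that run does not show whether smaller differences could be detected. HA coverage used an exact permutation test (scipy 1.17.1). The 5 members, their interval and the gene lists were chosen with earlier results of these data known. Named genes were the members, all other protein-coding genes in the interval, the fixed lists, and the 3 genes nearest Fabp12 in pattern; 1 listed gene is not reported here. Alternatives were stricter thresholds, equal numbers of peaks, all labelled replicates, other windows and scalings, and each list left out.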

Additional observations from a re-analysis of the deposited data

How the results depend on the processing

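H3K27me3 coverage of the interval, H3R2C minus H3WT, ran from 4.00 to 8.52 percentage points with 1 list left out, H3R26C from -0.582 (without list A of H3R26C) to 5.06, H3R8C from -2.98 to -1.60 and H3R17C from -2.15 to -1.71. Over the member genes alone it was 33.3 in H3R2C, 9.25 in H3R26C and 0.631 in H3R17C, which turned the sign of the last. With the upper 50% of peaks it was -0.955 in H3R8C and -0.859 in H3R17C, and with a common signal floor, added after seeing the data, -1.62 in H3R17C. Fabp12 (1 member) was gained in H3R2C and H3R26C with the upper 50% of peaks, with the common floor and without list B of H3WT, 0 to 1 with lists left out. It was lost in H3R8C (1) with 2.5 kb windows, and in H3R8C and H3R17C without list A of H3WT (0 to 1 with lists left out). For H3R17C, that last setting compares 1 list with 1 list. The shares of all genes gained or lost under these settings were not computed. Its scaled signal over H3WT was 50.8 in H3R2C, 10.6 in H3R26C and 0 in H3R17C with equal numbers of peaks, and 2.48, 1.65 and 1.79 by maximum signal. Leaving out lists gave 24.7 to 26.3, 5.61 to 8.53 and 2.03 to 2.13. No ratio was had with the upper 50% of peaks or the common floor, where H3WT was at 0. The causes were not tested.

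HA coverage of the interval reversed with equal numbers of peaks (-0.518) and all labelled replicates (-0.0439), and ranged from -0.311 to 0.844 with 1 list left out. HA genes called lower and higher numbered 989 and 2191 with all labelled replicates, where identical lists count as replicates. They numbered 2 and 20 with pseudocount 1, 21 and 86 with no filter, 44 and 82 with a peak in every list, 5 and 36 without trend, 208 and 362 without scaling, 108 and 341 by maximum signal, and 1 lower with the upper 50% of peaks. With the replicate number as a block, 2 genes were lower and 13 higher; the numbers are shared labels with 2 lists per group, and no pairing is documented. Fabp12 was 0.32 to 7.34 on the log2 scale over 20 alternatives and passed 0.05 only with all labelled replicates (adjusted p = 0.000341). Otherwise its adjusted p lay between 0.0946 and 0.414.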
